A study of Mus musculus with 7 samples.

Results

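The cells described here are the collagen-rich stromal cells of the mouse ovary 5 days after birth (P5), in which the progenitors of the theca layer are sought. They were taken from the P5 library by their own counts of unique molecular identifiers (UMIs, each standing for 1 captured mRNA molecule). A cell was kept if it had at least 1000 detected genes, at least 10 UMIs of Col1a1, Col1a2 and Col3a1 together, no UMI of Wnt6, at most 1 of Upk3b, none of Cdh5 or Pecam1, at most 1 of Rgs5 and at most 2 of Dazl and Ddx4 together. This gave 2217 cells of the 6519 in the P5 library (34.0%, exact 95% binomial interval 32.9 to 35.2) and of the 52542 cells in the series. Within them, the 648 cells with at least 1 UMI of Gli1 or Ptch1 are called positive and the 1569 cells without one negative.

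The series followed follicle formation in wild-type, untreated C57BL/6J mice through 7 droplet single-cell RNA libraries of trypsin-dissociated gonads, 1 library for each age. The first library held whole gonads of E11.5 embryos (E for embryonic day). The next 4 held fetal ovaries, of which E12.5 and E14.5 are called early here and E16.5 and E18.5 late, and the last 2 held ovaries of postnatal days 1 (P1) and 5. Values listed by age follow this order. The labels speak of an individual ovary, whereas the paper reports that many gonads or ovaries were sequenced over the time points. The number of animals behind each library is therefore uncertain, and each library counts as 1 sample. Age and library cannot be told apart. The time in trypsin was the same for E11.5 and E12.5, for E14.5 and E16.5, and for P1 and P5, but otherwise increased with age, so that between ages of unequal time dissociation cannot be told apart from age either. At P5 there is 1 library, so differences among its cells are given as values without a test. Levels are CPM, the UMIs of a gene per 1000000 UMIs summed over a group of cells, with exact 95% Poisson intervals. Shares have exact binomial intervals and ratios exact conditional ones, and all these intervals cover counting error only.

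Hedgehog ligands made by granulosa cells act on neighbouring stromal cells. The ligand relieves the block that the receptor Ptch1 puts on Smo, and the Gli transcription factors then switch on targets that include Gli1 and Ptch1 themselves. These genes are therefore the usual readout of a cell that receives the signal. Theca cells form around growing follicles from stromal precursors of this kind and later make androgens. The remaining stroma supplies collagen, small proteoglycans such as decorin (Dcn) and lumican (Lum), and contractile cells that hold smooth muscle actin (Acta2).

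The 2217 cells held 13657852 UMIs, with a median of 5694 UMIs (range 1859 to 21873) and 2114 genes per cell. The gene minimum removed 1209 cells of the library and the collagen minimum 2743. The exclusions of Wnt6, Upk3b, Cdh5 or Pecam1, Rgs5, and Dazl or Ddx4 then removed 251, 6, 70, 21 and 2 cells. Collagen counts in the members ran from 10 to 230 UMIs with a median of 26. The 120 cells just outside the collagen threshold (5 to 9 UMIs) had 898 CPM of Dcn, 104 of Lum, 60.4 of Ptch1 and 3.85 of Gli1, and the 232 just inside it (10 to 14 UMIs) had 1816, 242, 50.04 and 14.9 CPM. Acta2 was at 1351 CPM just outside the threshold and 3130 CPM just inside it, against 1159 CPM over all members. Members with exactly 1 UMI of Gli1 or Ptch1 (384 cells) had 168 CPM of the growth factor receptor Pdgfra, those with 2 or more (264 cells) 252 CPM, and those with none 138 CPM. The P5 library shared 66, 42, 98, 0, 51 and 53 cell barcodes with the 6 earlier libraries in order of age, of which 4, 3, 2, 0, 4 and 5 were members of the same rule in both libraries.

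The members carried the markers of ovarian stroma, with few transcripts of differentiated theca cells. Dcn (chr10:97479609-97518143 on GRCm38, plus strand) stood at 2421 CPM (2395 to 2447), and 98.6% of the members held a UMI of it. Lum (chr10:97565128-97572703, plus strand) stood at 476 CPM (465 to 488) and Acta2 (chr19:34241090-34255590, minus strand) at 1159 CPM (1141 to 1177). Ptch1 (chr13:63508328-63573598, minus strand) stood at 70.7 CPM (66.3 to 75.3) and Gli1 (chr10:127329882-127341974, minus strand) at 15.3 CPM (13.3 to 17.5). Of the theca genes, Cyp17a1, which makes androgen precursors, had 4 UMIs in all members, and Lhcgr, the luteinizing hormone receptor, had 1. Cyp11a1, which starts steroid synthesis, and the theca peptide hormone Insl3 had none, where a count of 0 allows up to 0.220 CPM. Star, the cholesterol carrier, was at 1.83 CPM and the steroid enzyme Hsd3b1 at 9.23 CPM. The data therefore hold stroma with UMIs of Gli1 and Ptch1, and the defining genes of mature theca cells were at or near 0.

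Transcripts of other cell types were present in the members, and the rule set no limit on immune or red cell genes. The 8 immune genes summed to 64.1 CPM in the members, with Tyrobp highest at 20.6 CPM, against 8537 CPM in the 108 P5 cells chosen for immune genes. The 8 endothelial genes summed to 23.8 CPM with Plvap at 0, the 8 oocyte genes to 36.1 CPM with Dppa3 highest at 12.6 CPM, and the 9 surface epithelial genes to 30.2 CPM with Lypd2 at 0. The 6 erythroid genes summed to 7885 CPM, with Hbb-bs, a haemoglobin chain, highest at 3879 CPM. Haemoglobin was also high in the 1498 P5 cells that held Wnt6, a granulosa cell gene, whose erythroid sum was 6501 CPM, against 2333 CPM in the immune cells. What part of these values came from free RNA was not tested.

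Within P5, ligand and Gli1 lay in different cells. Dhh, the main hedgehog ligand of granulosa cells, had 2 UMIs in the members and 117 UMIs in the Wnt6-positive cells (8.79 CPM, 7.27 to 10.5). Ihh, the second ligand there, had 1 UMI in the members and 38 in the Wnt6-positive cells (2.86 CPM), and Shh had none in the members. Gli1 had 209 UMIs in the members and 2 UMIs in the Wnt6-positive cells, although the total UMIs of these groups were close, at 13657852 and 13307680.

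Ptch1 did not follow this division. It stood at 92.7 CPM (87.6 to 98.1) in the Wnt6-positive cells, above the 70.7 CPM of the members. A Ptch1 UMI was found in 24.8% of members and in 47.6% of Wnt6-positive cells, whose median depth was 8071 UMIs. After every cell was thinned at random to 2000 UMIs, which left out 6 members, the shares were 11.1% and 17.2%. In the 108 immune cells, which should lack the gene and had a median of 7077 UMIs, the share was 5.56% before thinning and 0.926% after it. A Ptch1 UMI was therefore common in both groups, whereas Gli1 stood at 15.3 CPM in the members and 0.15 CPM in the Wnt6-positive cells.

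The other parts of the pathway were present in the members at differing levels. Gas1, a coreceptor, stood at 321 CPM in the members against 60.8 CPM in Wnt6-positive cells and 829 CPM in the 60 Rgs5-high cells, in which the pericyte receptor gene Pdgfrb was at 826 CPM. Smo, the signal transducer, stood at 89.8 CPM in members and 52.8 CPM in Wnt6-positive cells. In the members, the coreceptors Boc and Cdon were at 31.6 and 21.2 CPM, the transcription factors Gli2 and Gli3 at 17.1 and 21.2 CPM, and the inhibitor Sufu at 16.8 CPM. Hhip, which binds and holds ligand, was at 1.68 CPM (1.07 to 2.53). UMIs of both Gli1 and Ptch1 were found in 84 members, of Ptch1 without Gli1 in 465 and of Gli1 without Ptch1 in 99. A Ptch1 UMI was found in 45.9% of Gli1-positive and 22.9% of Gli1-negative members, groups whose depths were not matched.

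Foxl2, the granulosa transcription factor, was also found in the members. Foxl2 (chr9:98955288-98958543, plus strand) stood at 167 CPM (161 to 174) in the members, 380 CPM (369 to 390) in Wnt6-positive cells and 4.86 CPM (1.32 to 12.45) in immune cells. After thinning to 2000 UMIs, a Foxl2 UMI was found in 25.4% of members, 50.7% of Wnt6-positive cells and 0 of 108 immune cells, which allows a share of up to 2.78%. Amh, a hormone of granulosa cells, was by contrast at 2.49 CPM in the members and 107 CPM in the Wnt6-positive cells. Foxl2 thus exceeded the level in immune cells of the same library, while Amh was near 0.

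**Figure D1:**
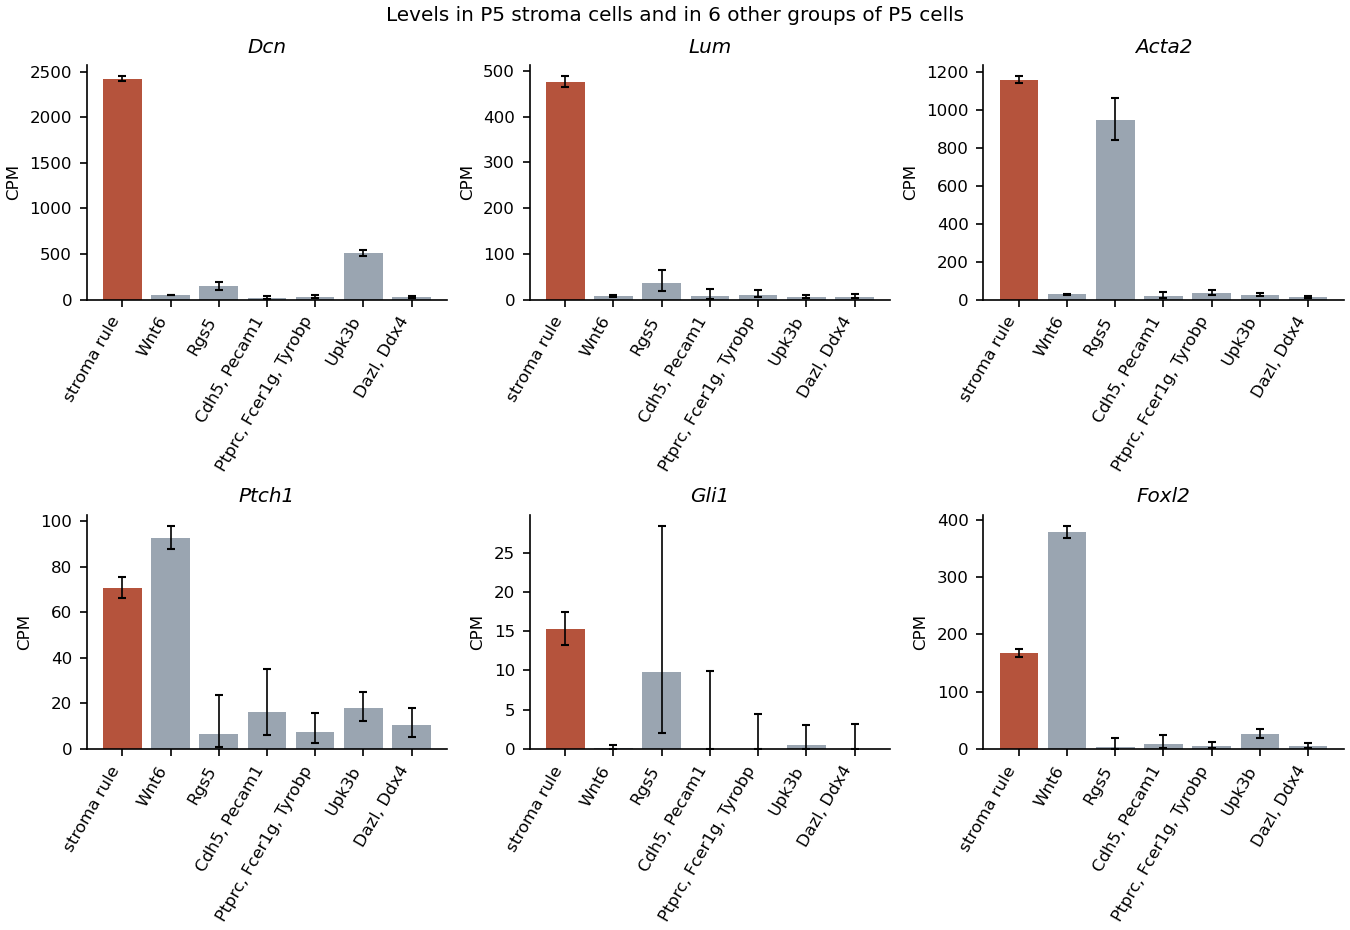
Levels of Dcn, Lum, Acta2, Ptch1, Gli1 and Foxl2 (CPM, linear axes from 0) in the stroma members and 6 other groups of P5 cells chosen by marker UMIs, with exact 95% Poisson intervals as error bars. Dcn (2421 CPM) and Lum (476 CPM) were high in stroma, whereas Ptch1 was higher in the Wnt6-positive cells (92.7 CPM) than in stroma (70.7 CPM) and Gli1 stood at 15.3 CPM in stroma.

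Against all other P5 cells of at least 1000 genes, which the rule chose the members from, 486 of 13648 genes (3.56%) were at least 2-fold higher in the members and 755 (5.53%) at least 2-fold lower, with 10 CPM added to both sides. These values describe the choice and were not tested. All 15 of the stromal matrix genes listed and 9 of 10 smooth muscle genes were past 2-fold higher, with median ratios of 5.29 and 4.81 against 0.930 over all genes. Of the genes outside the rule, the largest ratios were those of Mfap4, a microfibril protein (1058 against 97.2 CPM), and Ptn, a secreted growth factor (1275 against 123 CPM). Others were Sfrp1, a Wnt antagonist (565 against 58.7 CPM), the non-canonical Notch ligand Dlk1 (867 against 94.99 CPM) and the actin-binding protein Tagln (505 against 51.2 CPM). Mfap5 (189 against 14.4 CPM), Lsp1 (873 against 96.8 CPM), the matrix protease Mmp2 (343 against 35.4 CPM) and Clmp (164 against 12.6 CPM) were also among them, with Lum and Acta2.

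Among transcription factors of the stroma and gonad, 9 of 18 measured were past 2-fold higher and 2 past 2-fold lower. Tcf21, a factor of mesenchymal progenitors, was at 138 CPM in members and 10.6 CPM in the other cells, and Nr2f2 at 287 and 48.2 CPM. Pdgfra was at 161 and 14.8 CPM. Of the granulosa list, 10 of 12 genes were past 2-fold lower, among them Fst, an activin binding protein (9.88 against 268 CPM), and the Amh receptor Amhr2 (13.0 against 283 CPM). Wnt4 was past 2-fold higher (130 against 51.1 CPM). The genes with the lowest ratios were the oocyte genes Dppa3 (12.6 against 502 CPM) and Ooep (10.7 against 376 CPM), followed by Uchl1, Mt1, AC167229.1, Mt2, Fst, Krt18, Itga6, Amhr2, Gstm6 and Aldh1a1.

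The same rule, applied to each of the other libraries, found 1198 cells at E11.5, 597 and 633 in the early ovaries, 2076 and 745 in the late ones and 1628 at P1. Their median depths were 12223.5, 9813, 5635, 10476, 6408 and 6816 UMIs, so that P5 was close to the shallowest. The E11.5 library is labelled as gonad, not ovary, and was kept out of the comparison of positive with negative cells.

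Of the 15 stromal matrix genes, 6 had their highest level of the 7 libraries at P5 (Dcn, Lum, Mfap4, Mfap5, Postn and Ogn), as did 779 of the 8372 genes with a mean level of at least 10 CPM (9.30%). Dcn was at 87.6, 689, 447, 965, 864, 1504 and 2421 CPM in the 7 libraries in order of age. Lum was at 109, 175, 141, 249, 306, 413 and 476 CPM in the same order, and Acta2 at 287, 191, 466, 285, 545, 645 and 1159 CPM. For these genes the interval at P5 lay above that of each of the 6 other libraries. The microfibril gene Mfap5 was at 1.78 to 6.27 CPM up to E16.5, and at 36.1, 92.6 and 189 CPM at the 3 ages after it. Foxl2 was listed at 0 at E11.5 and stood at 0.627, 3.82, 36.7, 55.4, 80.6 and 167 CPM from E12.5 to P5. Wnt5a, a secreted ligand of the stroma, had its highest level at E16.5 (292 CPM) and its lowest at P5 (39.1 CPM).

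Ptch1 was high at both ends of the series, and Gli1 was not. Ptch1 was at 55.0 CPM (51.5 to 58.8) at E11.5, and at 57.6 (51.9 to 63.8) and 16.6 CPM (12.8 to 21.1) in the early ovaries. In the late fetal ovaries it was at 25.0 (23.0 to 27.1) and 23.7 CPM (19.6 to 28.4), in those of P1 at 22.4 CPM (19.8 to 25.2) and in those of P5 at 70.7 CPM. The interval at P5 lay above every other one, those of E11.5 and E12.5 overlapped, and those of the late fetal ovaries and P1 overlapped. Gli1 was at 10.1, 8.77, 5.09, 14.2, 11.2, 7.18 and 15.3 CPM, and its interval at P5 (13.3 to 17.5) overlapped those of E16.5 (12.7 to 15.9) and E18.5 (8.43 to 14.48). Hhip was at 6.56 and 5.48 CPM at E11.5 and E12.5, at or below 0.255 CPM from E14.5 to P1, and at 1.68 CPM at P5.

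Shares of positive cells depended on depth. A Gli1 or Ptch1 UMI was found in 41.2% of the E11.5 cells, 35.2, 11.7, 29.3, 18.52 and 18.0% from E12.5 to P1 in order, and 29.2% at P5 (27.3 to 31.2). After thinning to 2000 UMIs the shares were 13.1, 11.7, 3.16, 7.54, 6.33 and 4.92% from E11.5 to P1 and 13.4% (12.04 to 14.9) at P5. The share at P5 was thus within the interval of that at E16.5 as deposited and above it at equal depth, and its thinned interval lay above those from E14.5 to P1 and overlapped those of E11.5 (11.2 to 15.1) and E12.5 (9.26 to 14.6).

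**Figure D2:**
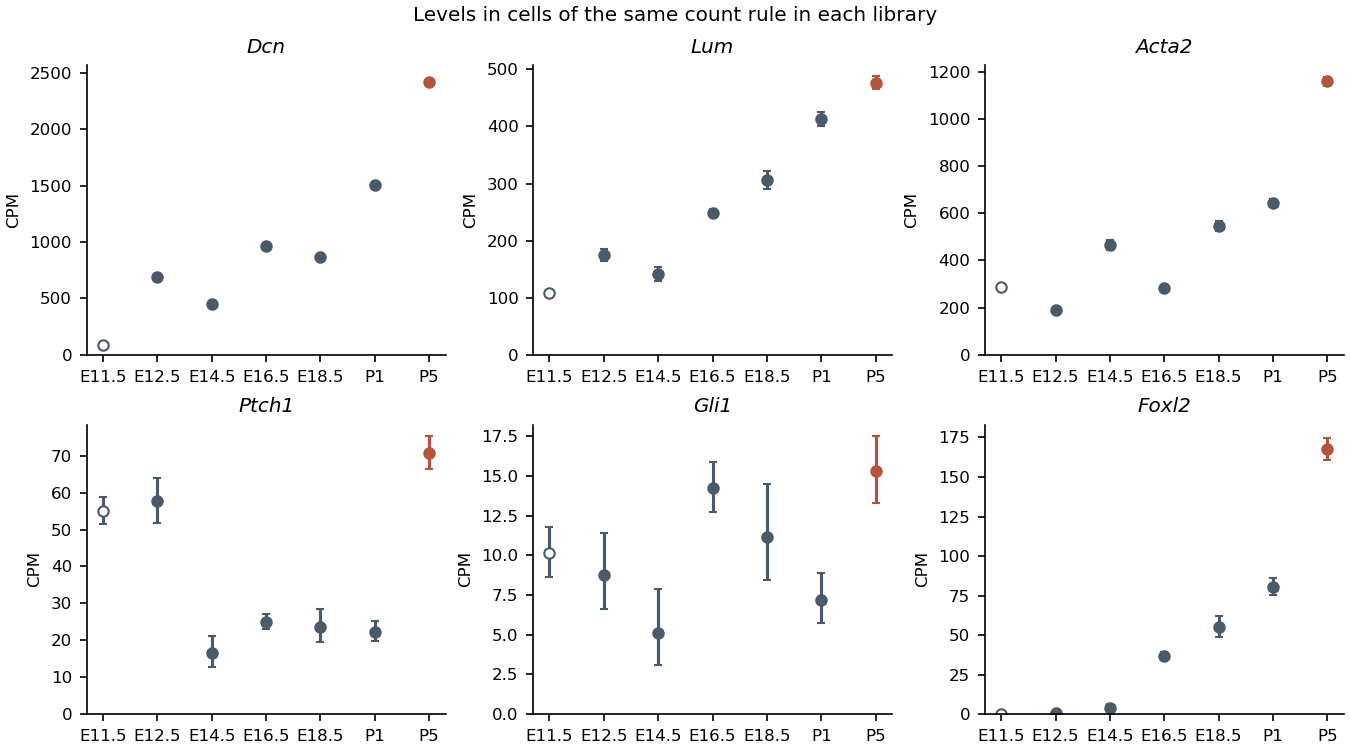
Levels of Dcn, Lum, Acta2, Ptch1, Gli1 and Foxl2 (CPM, linear axes) in the cells that meet the same rule in each of the 7 libraries by age, with exact 95% Poisson intervals (E11.5 as an open symbol, P5 in red, 1 library at each age). Dcn had its highest level at P5 (2421 CPM), and Ptch1 stood at 55.0 and 57.6 CPM at E11.5 and E12.5, between 16.6 and 25.0 CPM from E14.5 to P1 and at 70.7 CPM at P5.

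Between P1 and P5, contractile genes differed more than most others. With 10 CPM added, 53 of 11605 genes (0.457%) were at least 2-fold higher at P5 and 28 (0.241%) at least 2-fold lower, in 1 library against 1 library with no replicate check. Of the 10 smooth muscle genes 6 were past 2-fold higher, with a median ratio of 2.33 against 1.04 over all genes. The smooth muscle actin Actg2 was at 135 CPM at P5 and 7.34 CPM at P1, the calponin gene Cnn1 at 49.9 and 4.92 CPM, the myosin heavy chain Myh11 at 56.2 and 8.43 CPM, Lmod1 at 54.0 and 11.3 CPM, Mylk at 585 and 260 CPM and Tpm2 at 393 and 154 CPM. At P5 most of the Actg2 lay in 1 cluster of 169 smooth muscle-like cells. Ptch1, a gene of the rule, was at 70.7 against 22.4 CPM (ratio 3.16, 2.76 to 3.63) and Gli1 at 15.3 against 7.18 CPM (2.13, 1.65 to 2.77). These 2 ratios have no CPM added. Over the settings run, with 1 or 10 CPM added, Ptch1 was at 2.33 to 3.07 and Gli1 at 1.40 to 1.99, below 2-fold.

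Other genes higher at P5 were Col4a4, a basement membrane collagen (143 against 35.1 CPM), the lipoprotein lipase Lpl (69.7 against 17.7 CPM), Actr3b (116 against 11.4 CPM), the troponin gene Tnnt2 (20.8 against 0.668 CPM), Fbxl22 (87.6 against 24.6 CPM), Wfdc17 (43.6 against 0.918 CPM) and AY036118 (270 against 82.2 CPM). Wfdc17 stood at 3008 CPM in the 10 cells of a cluster led by neutrophil genes. The genes lower at P5 included H19, an imprinted noncoding RNA (330 against 991 CPM), Alcam, an adhesion molecule (66.7 against 216 CPM), Bex2 (26.4 against 93.6 CPM), Zfp787 (28.2 against 87.6 CPM), Stbd1 and Crispld2 (9.88 against 39.6 CPM). Also among the 12 lowest ratios were the carbonic anhydrase Car2 of red cells (10.8 against 114 CPM) and the granule and myeloid genes Camp, Ngp, Chil3 and Lyz2. Of the lists, 1 of 6 erythroid genes (Car2) and none of the 5 immune genes measured was past 2-fold lower. Foxl2 (ratio 2.08, 1.93 to 2.24, without added CPM) and Pdgfra (161 against 106 CPM) were also higher at P5. Gas1 (321 against 532 CPM), Tcf21 (138 against 226 CPM) and Wnt5a (39.1 against 69.1 CPM) were lower. None of these genes was past 2-fold with 10 CPM added, where Foxl2 was at 1.96. Of the 18 transcription factors measured, 1 was past 2-fold lower (Lhx9, ratio 0.486).

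Clustering of the 2217 members divided them into 9 groups at the resolution used, and into 5 and 12 at a lower and a higher one. Their leading genes describe how the clusters were made and are not tests. Cluster 1 (551 cells) was led by haemoglobin genes (Hbb-bt at 1840 CPM against 538 CPM in the other members, with Hba-a1, Hba-a2 and Hbb-bs), and then by Ntng1. Cluster 2 (387 cells) was led by Sept4, Gucy1a1 (a subunit of the nitric oxide receptor, 890 against 312 CPM), Tceal6, Clca3a1 and Palm3. Cluster 3 (291 cells) was led by immediate early genes, with Btg2, Fosb, Junb and Zfp36, and by Fst. Cluster 4 (255 cells) was led by Igfbp3, which binds insulin-like growth factors (400 against 37.9 CPM), Col6a5, Kcnj8, H19 and Ndnf.

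Clusters 5 and 7 (254 and 166 cells) were led by genes of cell division. Hist1h2ap, Cenpf, Nusap1, Prc1 and Top2a led the former, and the DNA replication genes Ung, Hells, Mcm3 and Cdc6 with Slfn9 the latter. Cluster 6 (169 cells) was smooth muscle-like, led by Actg2 (1381 against 20.5 CPM), Cnn1, Myh11, Tnnt2 and Acta2. It held 66.2% of the members' Acta2 UMIs and 86.2% of their Actg2 UMIs, and its Acta2 level was 9076 CPM. Cluster 8 (134 cells) was led by Nefm, Ebf1, Sfrp2, Col14a1 and Smoc2, and had 8310 CPM of Dcn, 18.1 CPM of Foxl2 and 22.3 CPM of Ptch1. Cluster 9 (10 cells) was led by Stfa1, BC100530, S100a8, S100a9 and Gm5483, which are genes of neutrophils. It also held macrophage genes, with C1qa at 627, C1qb at 564, C1qc at 619 and Cx3cr1 at 172 CPM, and Ccl4 at 1253 CPM. Its median depth was 2.37 times that of all members, and Scrublet called 1 of its cells a doublet.

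Positive cells were found in every cluster, from 12.7% of cluster 8 (7.57 to 19.5) to 41.7% of cluster 1 (37.6 to 46.0). The shares were 38.2% in cluster 5, 36.7% in cluster 7, 31.8% in cluster 4, 21.6% in cluster 3, 17.8% in cluster 2 and 16.0% in cluster 6. Clusters 5 and 7 were also the deepest of those with over 10 cells, at medians of 8329 and 7222.5 UMIs, while cluster 1 had 5637 and cluster 8 had 5062.5. The levels do not depend on depth in this way, but they come from the same UMIs as the shares and are no separate support. Ptch1 was at 122 CPM in cluster 1, 85.0 in cluster 4, 78.8 in cluster 7, 67.4 in cluster 5, 46.5 in cluster 3, 39.9 in cluster 6, 34.1 in cluster 2 and 22.3 in cluster 8. Gli1 was at 26.1 CPM in cluster 1, 22.8 in cluster 4 and between 4.33 and 17.1 CPM in clusters 2, 3, 5, 6, 7 and 8. Its lowest level among these was in cluster 6, with 6.97 CPM in cluster 8, and cluster 9 had 0 UMIs of it. Cluster 1 held 40.0% of the members' Ptch1 UMIs and 39.7% of their Gli1 UMIs, in 24.9% of the cells. Its haemoglobin was also the highest, and the part of red cell RNA in its grouping was not tested.

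**Figure D3:**
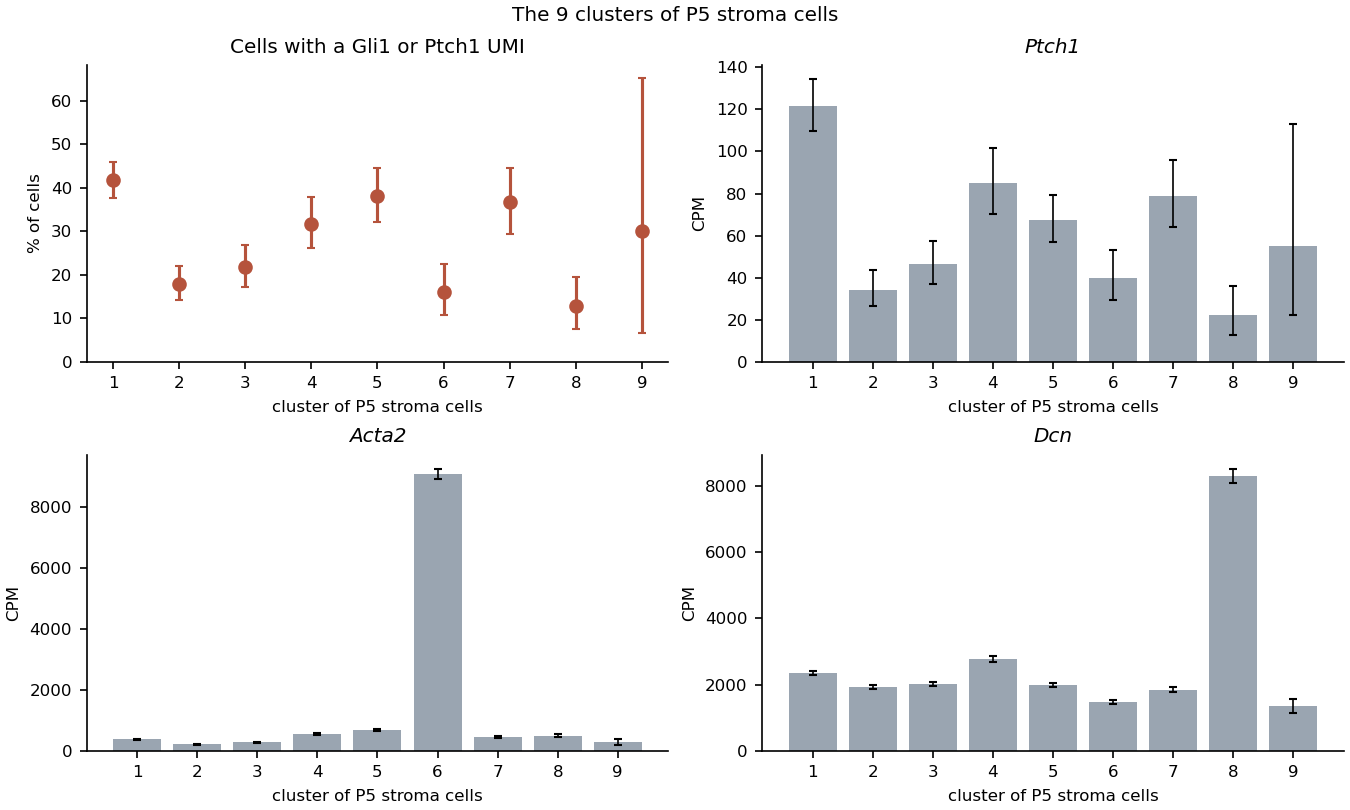
Share of cells with a Gli1 or Ptch1 UMI (percent, points with exact 95% binomial intervals) and levels of Ptch1, Acta2 and Dcn (CPM, bars from 0 with exact 95% Poisson intervals) in each cluster of the P5 members. Cluster 1 had the highest share of positive cells (41.7%) and of Ptch1 (122 CPM), cluster 6 had 9076 CPM of Acta2 and cluster 8 had 8310 CPM of Dcn.

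At P5, positive and negative cells differed in few genes. With 10 CPM added, 61 of 10605 genes (0.575%) were at least 1.5-fold higher in positive cells and 76 (0.717%) at least 1.5-fold lower, without a test. The median ratio over all genes was 1.00. The positive cells were deeper, with a median of 6308 UMIs against 5505. With 638 negative cells drawn to the same depth in a single random draw, 64 genes were past 1.5-fold higher and 117 lower, of 9722. In that draw Hbb-bs was at 3198 against 6980 CPM, Hba-a1 at 1666 against 3396 CPM and S100a9 at 245 against 1154 CPM. All negative cells together had 606 CPM of S100a9, so the draw also changed the make-up of the negative side. Among all members none of the 6 erythroid genes was past 1.5-fold. In the dissociation response list, 1 of 15 genes was past 1.5-fold higher in positive cells (Hspa1a, a heat shock chaperone, at 856 against 549 CPM, and 856 against 598 CPM at the same depth), and its part in the division was not tested.

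Higher in positive cells was Pdgfa, a growth factor of the stroma (47.7 against 23.5 CPM), past 1.5-fold as 1 of 12 measured growth factors and receptors. Its receptor Pdgfra was at 206 against 138 CPM (1.49, 1.37 to 1.63), and Igfbp6, a target in the Gli list, at 167 against 121 CPM (1.38, 1.26 to 1.52). None of the 7 measured genes of the Gli list was past 1.5-fold among all members. With negative cells drawn to the same depth, Igfbp6 (167 against 98.5 CPM) and Pdgfra (206 against 127 CPM) were past it. Of the genes with the largest ratios, Crispld1 was at 37.3 against 9.81 CPM, the proteoglycan Vcan at 127 against 54.6 CPM, the adenylyl cyclase Adcy7 at 30.8 against 9.70 CPM, the phospholipid transfer protein Pltp at 39.0 against 13.8 CPM and Ntng1, a netrin family member, at 71.4 against 33.3 CPM. The others were 6030408B16Rik (143 against 65.9 CPM), Wfdc1 (18.52 against 4.80 CPM) and Rgcc (22.5 against 8.06 CPM).

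Lower in positive cells were 6 of 10 smooth muscle genes, with a median ratio of 0.637 for the list. Actg2 was at 68.3 against 168 CPM, Lmod1 at 25.4 against 67.9 CPM, Myh11 at 28.3 against 69.9 CPM, Cnn1 at 27.9 against 60.7 CPM, Tagln at 351 against 581 CPM and Des at 21.2 against 37.1 CPM. Without the smooth muscle-like cluster 6, Acta2 was at 444 CPM in positive and 420 CPM in negative cells, in place of 880 and 1295 CPM, so that the direction turned, and 2 of the 10 genes were past 1.5-fold lower in place of 6. Npnt (4.91 against 36.8 CPM), the Wnt amplifier Rspo3 (12.05 against 46.0 CPM) and Id4 (22.3 against 68.9 CPM) were likewise lower, and without cluster 6 stood at 3.75 against 15.7, 4.93 against 22.2 and 12.4 against 29.2 CPM. Sh3bgr, Ramp1 (16.3 against 47.3 CPM) and Nefm (0 against 13.6 CPM) were also among the 12 lowest ratios. Nefm was the leading gene of cluster 8.

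Several myeloid genes had most of their UMIs in few cells. Ccl4 (31.2 against 3.38 CPM), Spp1 (19.6 against 4.03 CPM), C1qb (15.4 against 2.51 CPM) and C1qc (13.6 against 2.83 CPM) were among the 12 highest ratios, and Camp, Stfa1, S100a9 (245 against 606 CPM) and Gm5483 among the lowest. Without the 10 cells of cluster 9, of which 3 were positive, Ccl4 was at 0.450 against 0.990 CPM, Spp1 at 2.03 against 2.42 CPM, Stfa1 at 13.7 against 13.6 CPM and S100a9 at 72.8 against 79.8 CPM. C1qb was then at 2.93 against 0.770 CPM and C1qc at 1.13 against 0.330 CPM. Without cluster 9 the direction of Ccl4 and Spp1 thus turned and Stfa1 and S100a9 were closer, whereas C1qb and C1qc kept their direction at lower levels. Crispld1 kept 37.6 against 9.90 CPM and Vcan 128 against 55.0 CPM without it. The 8 immune genes summed to 91.5 CPM in positive and 50.8 CPM in negative cells, but to 14.4 and 16.8 CPM without cluster 9, so that the direction turned.

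The genes of identity and matrix were closer between positive and negative cells. Dcn was at 2509 against 2377 CPM, Lum at 450 against 489 CPM, Foxl2 at 179 against 162 CPM and Nr2f2 at 324 against 270 CPM. Wt1, a factor of the gonadal mesenchyme, was at 184 against 245 CPM, Gata6 at 119 against 184 CPM and the coreceptor Gas1 at 249 against 355 CPM. None of the 15 stromal matrix genes and none of the 18 measured transcription factors was past 1.5-fold among all members. With negative cells drawn to the same depth, Gata6 (119 against 199 CPM) and Postn (87.5 against 138 CPM) were past 1.5-fold lower. Lum was then at 450 against 420 CPM, so that its direction turned.

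**Figure D4:**
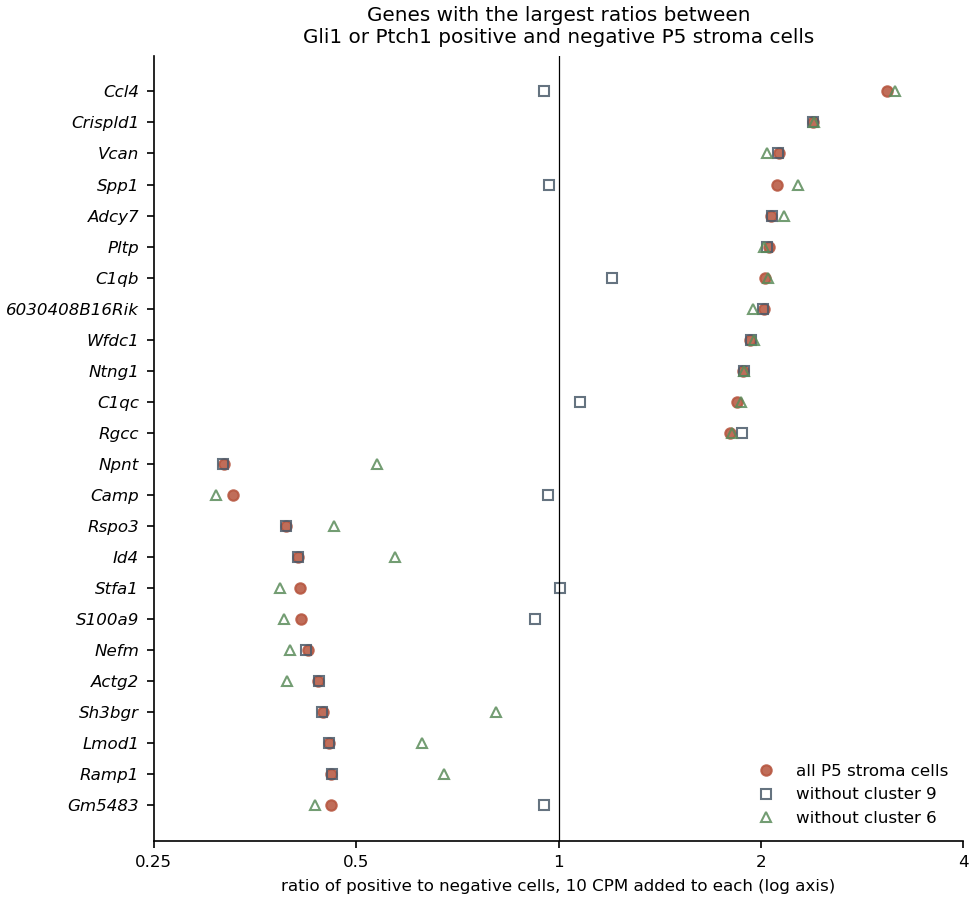
Ratio of positive to negative P5 members for 24 genes (10 CPM added to both, log axis), from all members (circles), without the neutrophil-gene cluster 9 (squares) and without the smooth muscle-like cluster 6 (triangles). Ccl4, Spp1 and Stfa1 moved to a ratio near 1 or across it without cluster 9, and Crispld1 and Vcan kept their place. C1qb moved towards 1 on this scale, at levels of 2.93 against 0.770 CPM that are below the 10 CPM added.

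The other ovary libraries allowed the division to be tested over ages. For each of the 5 ages from E12.5 to P1 the UMIs of positive and of negative cells were summed, and edgeR's quasi-likelihood test was run with the library as a block and Benjamini-Hochberg adjustment. The 5 ages are not replicates of 1 condition, so the test asks whether a difference recurred across ages. Of 12228 genes 267 passed at adjusted p below 0.05 (2.18%), 143 of them higher in positive cells (1.17%) and 124 lower (1.01%). Positive cells were deeper in each of these libraries. With negative cells drawn to the same depth, 61 of 11367 genes passed (0.537%), 14 higher (0.123%) and 47 lower (0.413%), and 58 of these were among the 267. DESeq2 called 40 genes, 32 higher and 8 lower, and edgeR without E16.5 called 89, 51 higher and 38 lower.

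None of the 6 receptors and coreceptors measured and none of 7 genes of the Gli list passed this test, from which Gli1 and Ptch1 were left out because the rule used them. Gas1 was lower in positive cells in 4 of 5 ages (log2 ratio -0.17, SE 0.058, edgeR adjusted p = 0.147). Pdgfra, higher at P5, had a log2 ratio of 0.02 (SE 0.052, edgeR adjusted p = 0.977). Foxl2 had a log2 ratio of 0.30 (SE 0.089, edgeR adjusted p = 0.072) and Acta2 one of 0.06 (SE 0.046, edgeR adjusted p = 0.768). Of the non-myeloid genes with the largest P5 ratios, Pltp, 6030408B16Rik and Rgcc were called higher (edgeR adjusted p = 0.011, 0.0036 and 0.00017). At the same depth Pltp was not called. Crispld1, Vcan, Adcy7, Wfdc1 and Ntng1 were not called. Of the non-myeloid genes with the lowest P5 ratios, Nefm was called lower (edgeR adjusted p = 1.8e-06). Npnt, Rspo3, Id4, Actg2, Lmod1 and Ramp1 were not called.

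Among the lists, 10 of 15 cell division genes rose in positive cells, with a median log2 ratio of 0.36 against -0.01 over all genes tested. Mki67, a marker of dividing cells, was higher in all 5 ages, at 162 against 108, 83.8 against 68.8, 399 against 263, 64.1 against 61.4 and 119 against 92.7 CPM in order of age (log2 ratio 0.47, SE 0.052, edgeR adjusted p = 1.9e-07). At P5 Mki67 was at 118 against 97.2 CPM, but at 118 against 150 CPM with negative cells drawn to the same depth, so that its direction turned. Over the 5 ages none of the 15 passed at the same depth, and their median log2 ratio was 0.02. The draw also left fewer negative cells, so depth and cell number changed together, and a cause was not tested.

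Of the stromal matrix list, 4 of 15 genes fell in positive cells (Col6a3, Postn, Fn1 and Sparc) and none at the same depth. Without each library in turn, in order of age, 1, 2, 0, 5 and 2 genes fell and 1, 1, 1, 0 and 0 rose, and Sparc was called without 1 of the 5 libraries. The other stromal lists held at most 1 call in each direction, and only that of growth factors and receptors held both, with Kitl higher. Gata6 fell by 0.23 on the log2 scale (SE 0.048, edgeR adjusted p = 0.0047), Des by 0.45 (SE 0.090, adjusted p = 0.0026) and the growth factor Igf1 by 0.30 (SE 0.055, adjusted p = 0.00092). Gata6 was not called without E12.5, E16.5 or P1, Des without E12.5 or E16.5 and Igf1 without E16.5, and none of these 3 was called at the same depth. In the dissociation response list, 1 of 15 genes rose (Hspa1a), but none at the same depth, and Hspa1a was not called without E16.5 or P1 (edgeR adjusted p = 0.476 and 0.0629). None of 7 theca and steroid genes and none of 7 pericyte genes passed.

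Of the granulosa list, 3 of 10 genes rose in positive cells, 2 of them also at the same depth. Fst had a log2 ratio of 1.05 (SE 0.18, edgeR adjusted p = 0.00027) but was higher in 3 of 5 ages, and it also passed at the same depth. The gene for the Kit ligand, Kitl (log2 ratio 0.35, edgeR adjusted p = 0.0025), did not. Neither was called without E16.5 (edgeR adjusted p = 0.248 and 0.813). At P5 these genes were not past 1.5-fold among all members: Fst was at 7.81 against 10.9 CPM and Kitl at 48.2 against 52.5 CPM. Each had an interval of the ratio that held 1. With negative cells drawn to the same depth at P5, Kitl was at 48.2 against 56.3 CPM. Fst was then at 7.81 against 18.1 CPM, past 1.5-fold lower in positive cells and opposite to the call over 5 ages.

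The largest changes were in blood and immune genes, most of them at a few CPM. All 7 immune genes tested fell in positive cells, also at the same depth, with a median log2 ratio of -2.98, although 2 were called without E16.5. Cx3cr1, a receptor of macrophages, had no UMI in the positive cells of any of the 5 ages and 0.253 to 3.94 CPM in negative cells. The embryonic haemoglobin gene Hba-x was at 50.5 against 648 CPM at E12.5 and at 0 in both at E16.5 and P1. Ccl4, C1qa, C1qc, Cxcl2, Ccl3, Csf1r, Hbb-bh1 and Hbb-y were the other 8 of the 10 lowest. At P5 the complement genes C1qa (12.3 against 4.14 CPM) and C1qc and the cytokine Ccl4 were higher in positive cells, but without cluster 9 C1qa was at 0.901 against 0.990 CPM, Ccl4 at 0.450 against 0.990 CPM and C1qc at 1.13 against 0.330 CPM. The 10 highest were Pklr, Ermap, Gata1, Cldn13 and Tspo2, known from red cells and their precursors, with Lmo2, Nxpe2, Tspan33, Pax8 and Rrad, and the highest level among them in positive cells was that of Lmo2 at P1 (20.1 CPM). Of these 10, Ermap and Lmo2 were also called at the same depth and without each library in turn. The other 8 were each not called without at least 1 library, and at the same depth 7 of them were not called and Pklr was not tested. Of the erythroid list 5 genes fell, 3 of them also at the same depth, but none without E14.5 or without P1, and 2 without E12.5 or without E16.5. Car2 rose (log2 ratio 0.80), but not under DESeq2, which gave it the other sign, and not without P1 (edgeR adjusted p = 0.449). Pax8, a gene of mesonephric tubules and epithelium, was higher in 4 of 5 ages (log2 ratio 1.39, SE 0.36, edgeR adjusted p = 0.028) but at no more than 5.71 CPM.

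In 120 of the 267 genes positive cells were higher at all 5 ages (66 genes) or at none (54 genes). Over all 12228 genes tested this held for 1043 (8.53%), 568 higher at all ages and 475 at none. Higher at none includes ages with 0 in both groups, as for Hba-x at E16.5 and P1, so that not every age shared the direction. Of these 120, 112 had a value at P5, where the interval of the ratio lay on the same side of 1 for 67 genes (59.8%) and on the other side for 1. Over all genes tested that had a value at P5 it was on the same side for 1402 of 10535 (13.3%). Over those higher at all 5 ages or at none it was so for 219 of 929 (23.6%). At the same depth 23 of the 120 were also called, 2 higher and 21 lower. This set was formed after the values were seen. Hba-x, Lyz2, Ecm1, Apoe, Atp1b1, Ptn and Mns1 kept their call when each of the 5 libraries was left out in turn.

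Ptn, which was also among the leading genes of the whole stroma, fell in positive cells. It was at 1049 against 1474 and 1264 against 1331 CPM in the early ovaries, 1828 against 2243 and 1638 against 1790 CPM in the late ones, and 1494 against 1735 CPM at P1 (log2 ratio -0.27, SE 0.042, edgeR adjusted p = 0.00010), and at 985 against 1416 CPM at P5 (ratio 0.695, 0.672 to 0.719). The positive cells were thus lower in each of the 6 libraries, and at the same depth the log2 ratio was -0.17 (adjusted p = 0.046). Atp1b1, a sodium pump subunit, was at 39.8 against 69.0, 118 against 131, 209 against 241, 178 against 250 and 133 against 146 CPM in the 5 ages (log2 ratio -0.31, SE 0.056, edgeR adjusted p = 0.00073) and at 136 against 222 CPM at P5 (ratio 0.613, 0.559 to 0.671). It too was lower in positive cells in all 6 libraries.

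Ecm1, a secreted matrix protein, was at 81.1 against 223 and 15.2 against 47.0 CPM in the early ovaries, 31.0 against 44.4 and 17.9 against 21.7 CPM in the late ones, and 41.6 against 41.7 CPM at P1 (log2 ratio -0.85, edgeR adjusted p = 3.6e-05), and at 20.7 against 40.0 CPM at P5. The groups were nearly equal at P1 and differed most at the first 2 ages and at P5. Sulf1, which edits heparan sulphate, was lower in positive cells in all 6 libraries, with 9.15 against 16.8 CPM at P5 (ratio 0.545, 0.376 to 0.774), but was not called without E16.5 (adjusted p = 0.410). Mns1, known from cilia and sperm flagella, rose in positive cells, at 36.2 against 22.2 CPM, 28.6 against 24.7, 29.5 against 14.9, 32.0 against 18.2 and 26.7 against 15.5 CPM in the 5 ages (log2 ratio 0.78, SE 0.11, edgeR adjusted p = 2.5e-05). At P5 it was at 26.1 against 19.7 CPM (ratio 1.32, 1.04 to 1.68).

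**Figure D5:**
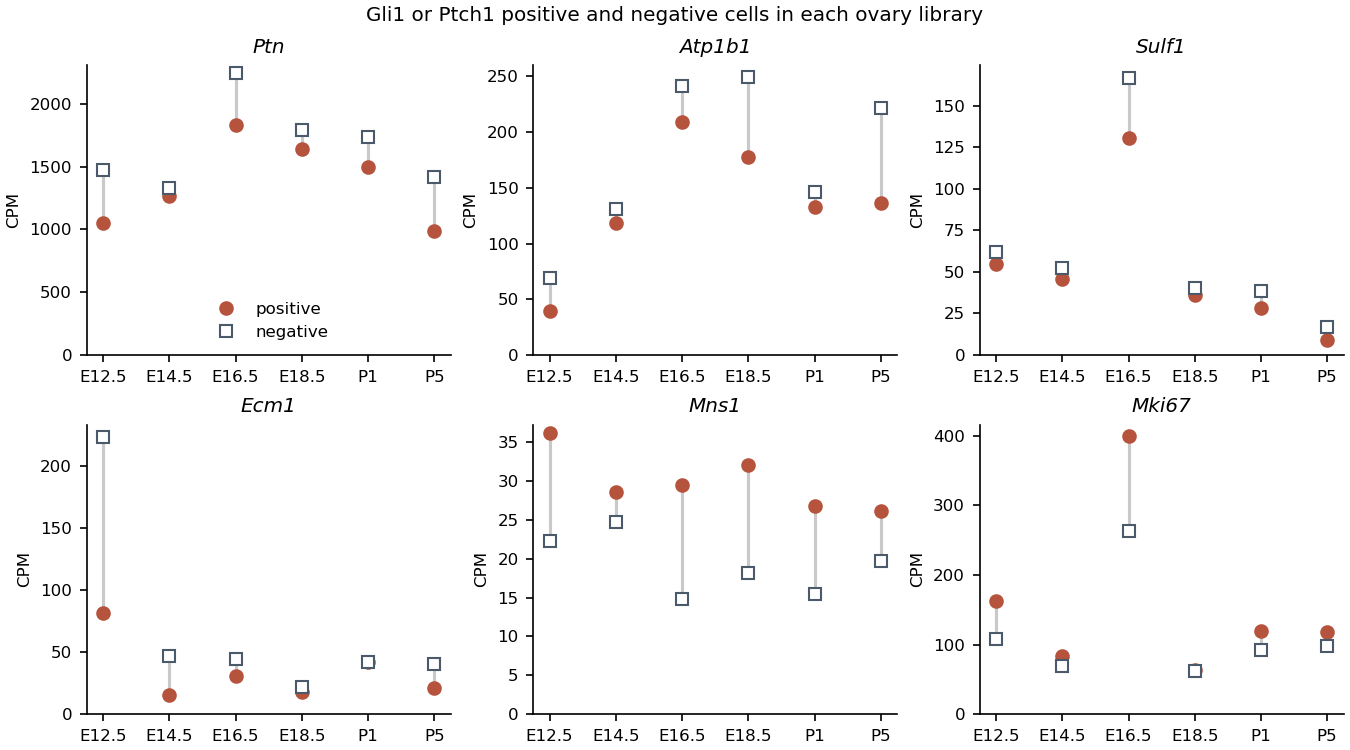
Levels of Ptn, Atp1b1, Sulf1, Ecm1, Mns1 and Mki67 (CPM, linear axes) in positive (filled circles) and negative (open squares) stroma cells at E12.5 to P5, 1 library at each age. Ptn, Atp1b1 and Sulf1 were lower in positive cells in all 6 libraries and Mns1 was higher in all 6. At P5 Ptn was at 985 against 1416 CPM.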

How the data were processed

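The deposited matrices hold raw UMI counts over 31053 genes for barcodes called as cells, which the authors obtained with Cell Ranger 3.1.0 on mm10. No column was left unmapped. Positions came from GENCODE vM21.

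Counts were summed over the cells that met the rule (and, for the comparators, cells with at least 5 UMIs of Rgs5, 2 of Cdh5 and Pecam1, 3 of the immune genes, 2 of Upk3b or 3 of Dazl and Ddx4). Thinning drew 2000 UMIs per cell. Ratios carry 10 CPM on both sides and need 50 UMIs, except that those printed with an interval have no CPM added. Edges were pruned from a graph of 30 neighbours over 10 principal components of 1500 variable genes, with Leiden clustering at resolution 0.6 (igraph 0.11.9). Doublets were kept, and Scrublet, run in scanpy 1.11.5, called 18 members. The test over 5 ages used edgeR 4.0.16, with DESeq2 1.42.0 as an alternative and R 4.3.3. The edgeR step was tested on simulated data. The default and the robust edgeR fit were both seen before the default was reported. Python 3.11.15, numpy 2.4.6, scipy 1.17.1 and pandas 2.3.3 were used.

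Genes named are those of the rule and the lists, the 12 largest ratios in each direction, the 10 largest called changes in each direction, and 5 leading genes of each cluster. The members and lists were chosen with earlier results of these data known. The comparator groups, and the genes called at both depths, were chosen after their values were seen. Each library counts as 1 sample. Some genes that the rule names are not reported here.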

Additional observations from a re-analysis of the deposited data

Results flagged for a closer look

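Apoe, the gene of apolipoprotein E, went one way in the earlier ovaries and the other way at P5. It was lower in positive than in negative cells at each of 5 ages, at 124 against 152, 68.5 against 164, 96.0 against 122, 82.9 against 96.5 and 124 against 165 CPM in order of age from E12.5 to P1 (log2 ratio -0.42, SE 0.062, edgeR adjusted p = 4.1e-05, and -0.62 at the same depth). At P5 it was at 245 against 195 CPM, a ratio of 1.26 (1.17 to 1.36). This P5 value is over all members, and the part of the cells of cluster 9 or of depth in it was not tested. The difference between P5 and the other ages was not tested, since P5 is 1 library.

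The E11.5 library, which no comparison of positive with negative cells used, had a Gli1 or Ptch1 UMI in 41.2% of the 1198 cells that met the rule (38.4 to 44.1), above the 29.2% at P5. Its cells were also deeper, with a median of 12223.5 UMIs against 5694, and after thinning to 2000 UMIs the shares were 13.1 and 13.4%. The difference was not tested.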

How the results depend on the processing

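Each age is 1 library, so P5 values carry no replicate error. The members were 35.8, 25.0 and 37.2% of cells with a collagen minimum of 5, of 20, or at most 10% mitochondrial UMIs, in place of 34.0%. Positive shares were 13.4% after thinning, 24.8% by Ptch1 alone and 8.25% by Gli1 alone, in place of 29.2%. The 137 genes past 1.5-fold at P5 became 313 with at least 2 UMIs to be positive and 580 with 1 CPM added, and the 81 genes past 2-fold against P1 became 487 with 1 CPM added. The ratio of Ccl4 turned to 0.820 (at least 2 UMIs), 0.733 (collagen of 20) and 0.951 (without cluster 9, an alternative added after seeing the data). With a collagen minimum of 20, Spp1 was at 0.806, C1qb at 0.975 and C1qc at 0.804, and without cluster 9 Spp1 was at 0.968 and Stfa1 at 1.00. In place of the 267 genes called by edgeR over 5 ages, DESeq2, which gave an adjusted p for 7250 genes, called 40. The fit at the same depth called 61, of which 58 were among the 267. The fit to the last 3 of the 5 ages called 140, of which 121 were among the 267. DESeq2 gave Car2 a log2 ratio of -0.44. Leaving out 1 library gave 89 to 308 calls, with 89 without E16.5 and 158 without P1. Without the replicate block of the library, edgeR called 0 genes, with 20 at an unadjusted p below 0.05, and DESeq2 was run with the block. The robust edgeR fit, added after seeing the data, called 263, of which 226 were shared. The causes were not tested. Of the other summary values 26 stayed within the limits set, and of those for single genes 688 kept direction and side of the threshold and 102 kept direction only.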
